A study of Mus musculus with 34 samples.

Results

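The genes of the MHC class I antigen presentation pathway were described in MOSJ-Dkk1 cells, a line of murine osteochondral sarcoma that secretes human Dkk-1 from a lentiviral construct under the cytomegalovirus promoter. They were taken by name and comprised 10 genes, namely the heavy chains H2-K1 and H2-D1, the light chain B2m, the peptide transporter genes Tap1 and Tap2, the loading factor Tapbp, the immunoproteasome subunits Psmb8, Psmb9 and Psmb10, and the transactivator Nlrc5. All 10 were among the 16576 genes listed for the cultures, and 5 of them (H2-K1, B2m, Tap1, Tap2 and Nlrc5) were among the 12595 genes listed for the tumours. The 18 cultures formed 6 groups of 3. Log phase cultures were grown for 6 days with regular medium changes, and nutritionally stressed cultures were held at confluence for 48 h with no medium change for 4 days. In each condition the cells received no morpholino (NT, labelled vehicle), 5 µM scrMo or 5 µM DkkMo, a morpholino against Dkk-1. Per the study, scrMo was a scrambled control morpholino designed with 5 mismatches. The 16 tumours formed 4 groups of 4, from nude NU/J mice aged 2 months that carried MOSJ-Dkk1 xenografts. The mice received vehicle (NT) or, every 2 days, doxorubicin (DRB), DkkMo or DRB with DkkMo (Combination). Nude mice lack a thymus and keep other host leukocytes, and the tumour RNA came from fixed tissue, so that host and tumour transcripts were sequenced together. Every culture was of the same transgenic line, and the vector control line was not analysed here.

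Class I molecules display peptides from proteins made inside the cell on its surface, where CD8+ T cells and natural killer cells inspect them. The immunoproteasome cuts proteins into peptides, the Tap1-Tap2 transporter carries the peptides into the endoplasmic reticulum, and tapasin, the product of Tapbp, bridges the transporter to a heavy chain paired with B2m. Interferons raise the set, in part through Irf1, whereas Nlrc5 is a transactivator that acts on a conserved promoter module of class I genes. In GRCm38, 7 of the 10 genes lay on chromosome 17 between 33915899 and 35267499, the region of the mouse MHC, and Psmb9, Tap1, Psmb8 and Tap2 lay within 34.3 kb of each other there (34181987 to 34216321). B2m lay on chromosome 2 (122147686 to 122153083), and Psmb10 (105935735 to 105938444) and Nlrc5 (94434356 to 94527272) lay on chromosome 8.

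RefSeq promoter windows of 300 bases (GRCm38.p6, 250 before to 50 after the annotated start) were found for 8 of the 10 genes, and not for Tap2 and Nlrc5. Promoter stretches of the classical class I chains and B2m are shown because these genes carry the sequence module on which Nlrc5 acts. Each is written 5′ to 3′ on the strand of the gene, and capitals mark the core read by interferon regulatory factors (AANNGAAA on either strand), the motif TGACG, which is part of the X2 box, and the Y box motif (CCAAT on either strand). H2-K1 is on the minus strand of chr17:34000349-34000457, H2-D1 on the plus strand of chr17:35262924-35263032 and B2m on the plus strand of chr2:122147530-122147648.
H2-K1: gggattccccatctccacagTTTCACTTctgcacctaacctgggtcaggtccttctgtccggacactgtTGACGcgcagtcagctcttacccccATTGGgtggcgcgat
H2-D1: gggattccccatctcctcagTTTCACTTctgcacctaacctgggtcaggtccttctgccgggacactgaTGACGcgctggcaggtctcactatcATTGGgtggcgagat
B2m: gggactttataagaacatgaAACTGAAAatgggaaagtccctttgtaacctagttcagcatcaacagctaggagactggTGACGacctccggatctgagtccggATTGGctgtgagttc

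In all 3 stretches TGACG was followed, after 20 bases, by ATTGG. This spacing, which was searched for after the sequences were read, occurred in 31 of 32851 promoter windows (0.0944%) and in none of the windows found for Tap1, Tapbp, Psmb8, Psmb9 and Psmb10. The interferon regulatory factor core lay 41 bases before TGACG in H2-K1 and H2-D1 and 51 bases before it in B2m, and 23.9% of all windows held such a core somewhere. The H2-K1 and H2-D1 stretches were identical at 97 of 109 positions (89%). TGACG alone was present in 20.8% and CCAAT in 37.4% of all windows, and overlaps between motifs were allowed. The windows of Tap1 and Psmb9, which are transcribed away from each other, shared 275 of their 300 bases. These matches describe letters in a window and were not tested as binding sites.

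Cultures held 25.9 to 44.8 M reads on listed genes, and tumours 26.9 to 125 M. The deposited values were variance-stabilised counts on a log2 scale. Levels are given as normalised counts recovered from them, and differences are differences of the deposited log2 values with their standard error, which are smaller than the log2 ratio of the counts for genes with few reads, such as Psmb9. A gene was called at a Benjamini-Hochberg adjusted p below 0.05 in limma over all genes of the comparison. The labels do not say whether libraries of a group came from separate cultures, so p values measure the spread between libraries, which may be technical, and the title number of 1 stress NT library is repeated on another. In the cultures the osteoblast genes Runx2 (1736 to 5718 normalised counts) and Col1a1 (1475 to 32561) and the cartilage gene Sox9 (4523 to 9248) were well above 0 in every library. Alpl (7.02 to 24.4), Bglap (2.25 to 43.9) and Col2a1 (1.00 to 26.8) were near the floor, and Sp7, Ibsp and Acan were not listed. The leukocyte gene Ptprc was also near the floor, at 1.04 to 20.3 normalised counts. None of the 16 markers of neutrophils, dendritic cells, T and natural killer cells and B cells was listed. Of 7 macrophage and myeloid markers, Csf1r, Cd68 and Lyz2 had values, with a summed level of 943 to 1016 normalised counts in log NT, 1428 to 1894 in log scrMo, 1267 to 1571 in log DkkMo and 2081 to 2410 over the stressed libraries, and the part of this in the class I values was not tested.

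Of the 10 genes, 9 had their highest mean in log phase NT cultures, and Nlrc5 alone had it in stressed DkkMo cultures. B2m was the most abundant, and the spread between the highest and lowest group means ran from 1.69-fold for B2m to 3.97-fold for Psmb8. Per kilobase of the principal transcript, B2m reached 38063 normalised counts in log NT cultures, H2-D1 10178, H2-K1 5705 and Tapbp 1917. The immunoproteasome genes, the transporter genes and Nlrc5 were lower on the same per-length scale, at 872 for Psmb8, 367 for Tap1, 331 for Psmb10, 288 for Tap2, 152 for Nlrc5 and 121 for Psmb9. H2-K1 and H2-D1 have near-identical stretches with each other and with other class I genes, and how reads that map to several places were counted is not given in the sources used here, so that the split between such genes is uncertain. The annotated spans of Tap1 and Psmb9 also overlap on opposite strands, and the use of strand in counting was not given either.

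**Figure D1:**
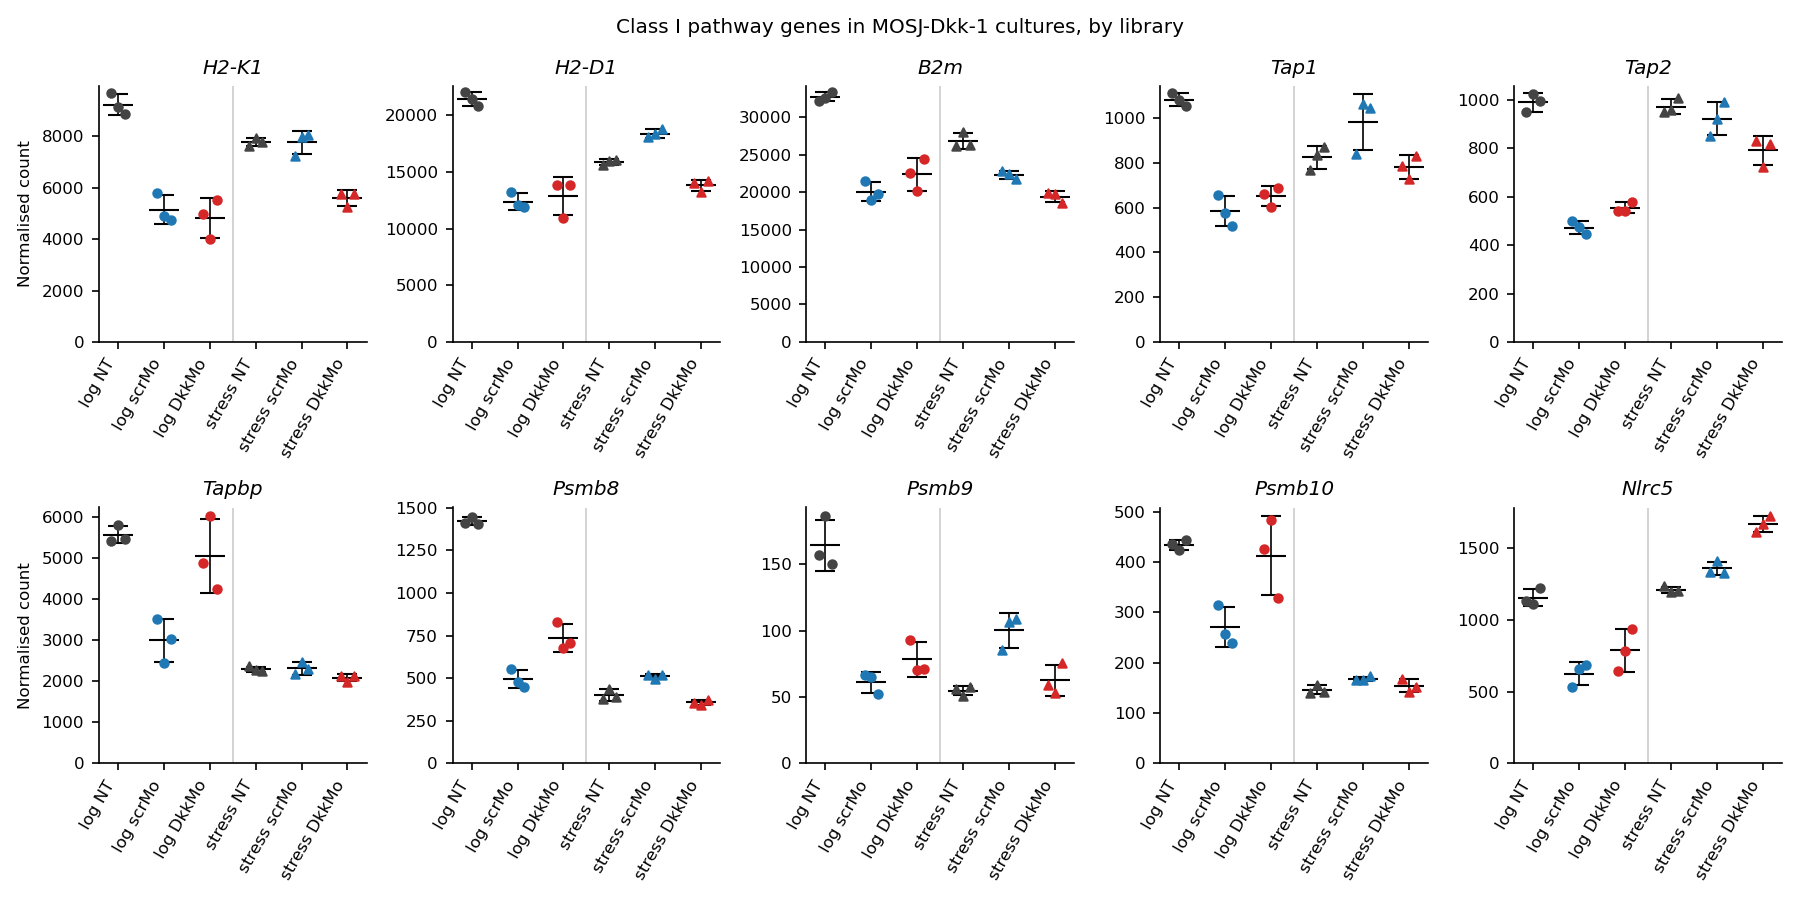
Normalised counts (y axis, linear from 0) of the 10 class I pathway genes in each culture library (points; circles log phase, triangles stress), with the mean and SD of each group of 3 in black. By group mean, log NT cultures stand highest for 9 genes. Their libraries overlap those of the next group for Tap1, Tap2, Tapbp and Psmb10. Nlrc5 is highest in stressed DkkMo cultures, at 1614 to 1723.

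The first comparison asked what the morpholinos changed in growing cells, with scrMo as the control for morpholino exposure. In log phase, all 10 genes were lower in scrMo than in NT cultures, to between 34.9% (Psmb8) and 62.3% (Psmb10) of the NT mean. Of all genes, 14.6% were called lower and 11.8% higher, and the median difference was -0.74 over the 10 genes and 0.00 over all genes. Every scrMo library lay below every NT library for all 10, as it did for 20% of all genes.

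The heavy chains and their partner fell together. H2-K1, which encodes a classical heavy chain, had 9679.6, 9138 and 8893 normalised counts in the log NT libraries and 5783, 4911 and 4753 in the log scrMo libraries, a difference of -0.81 ± 0.09 (SE; adjusted p = 1.78e-06, limma). H2-D1, the other classical heavy chain, had 22017, 21381 and 20781 in NT and 13193, 12084 and 11869.5 in scrMo (-0.78 ± 0.07, adjusted p = 2.52e-07). The 2 heavy chains thus lost similar shares, to 55.7% and 57.9% of the NT mean. B2m, the invariant light chain, had 32206, 32589 and 33408 in NT and 21448, 18977 and 19749.7 in scrMo (-0.70 ± 0.07, adjusted p = 3.65e-07), or 61.3% of the NT mean.

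The transporter and loading genes fell as well. Tap1 went from 1113, 1079 and 1055 normalised counts in NT to 654, 577 and 519 in scrMo (-0.68 ± 0.07, adjusted p = 1.34e-06). Tap2 went from 949, 1025 and 995 to 498, 474 and 444 (-0.78 ± 0.05, adjusted p = 6.3e-09), and Tapbp from 5411, 5792 and 5464 to 3503, 2442 and 3025 (-0.85 ± 0.10, adjusted p = 6.59e-06). No scrMo library reached the lowest NT library for any of the 3 genes, and the scrMo libraries of Tapbp were spread more widely than those of the transporter genes.

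Psmb8, the subunit that replaces the chymotrypsin-like Psmb5, showed the largest fall on the log2 scale of the 10, from 1411, 1446 and 1402 normalised counts in NT to 557, 477 and 451 in scrMo (-1.16 ± 0.06, adjusted p = 1.93e-10). Psmb9, which replaces Psmb6, went from 157, 186 and 149.7 to 66.3, 65.3 and 52.1 (-0.55 ± 0.06, adjusted p = 1.38e-06), and Psmb10, which replaces Psmb7, from 435, 424 and 444 to 315, 258 and 239 (-0.42 ± 0.07, adjusted p = 0.000266). As counts, Psmb9 fell nearly as far as Psmb8, to 37.3% of the NT mean. Nlrc5 itself was lower, at 534, 655 and 688 against 1135, 1110.1 and 1222 (-0.68 ± 0.08, adjusted p = 4.15e-06).

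DkkMo was also compared with NT in log phase. Of the 10 genes, 8 were lower and none higher, against 4.46% of all genes lower and 5.36% higher, with a median difference of -0.56 over the 10 and 0.01 over all genes. This comparison shares its NT libraries with the last, so that the 2 are not independent. H2-K1 was at 4979.9, 3991 and 5529.6 normalised counts in the DkkMo libraries (-0.91 ± 0.09, adjusted p = 2.3e-06), Psmb8 at 828, 675 and 704 (-0.76 ± 0.06, adjusted p = 5.16e-07) and Tap2 at 541, 542 and 579.7 (-0.62 ± 0.05, adjusted p = 9.02e-07). All of these lay below the lowest NT library. The groups did not overlap for 8 of the 10 genes, and the share of all genes without overlap was not counted. Tapbp, at 4876, 6018 and 4243, and Psmb10, at 427, 483 and 329, overlapped the NT libraries and were not called (-0.14 ± 0.10, adjusted p = 0.446, and -0.06 ± 0.07, adjusted p = 0.713).

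**Figure D2:**
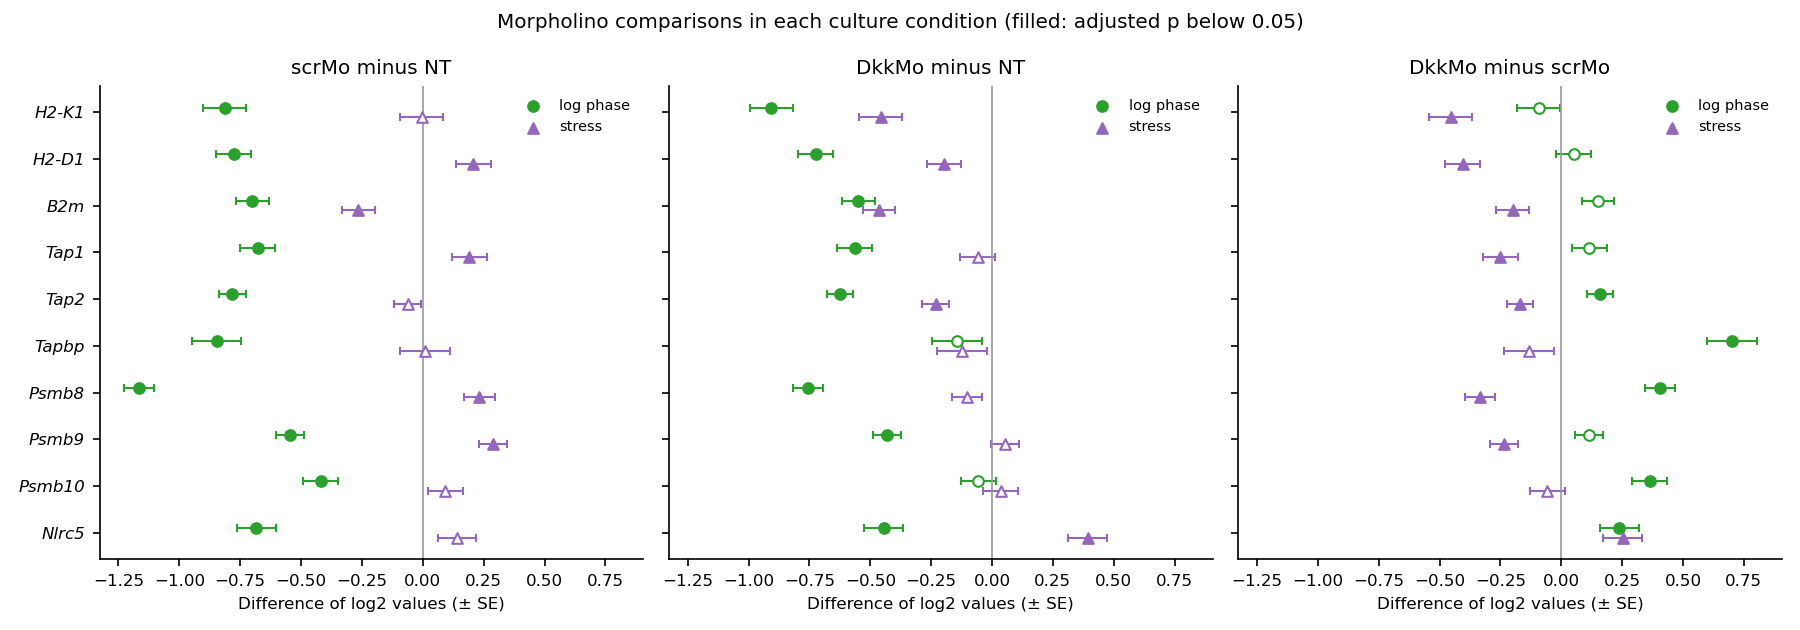
Differences of group means on the deposited log2 scale (x axis, ± SE of limma) for each gene (y axis), in log phase (green circles) and under stress (purple triangles). Filled symbols have an adjusted p below 0.05; all 10 green circles of scrMo minus NT are filled and lie left of 0, between -1.16 and -0.42.

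With both arms exposed to a morpholino, the log phase difference was smaller and went the other way. Of the 10 genes, 5 were higher in DkkMo than in scrMo and none lower, against 14.3% of all genes higher and 9.2% lower. Tapbp rose most (0.70 ± 0.10, adjusted p = 7.27e-05), to 169% of the scrMo mean, followed by Psmb8 (0.41 ± 0.06, adjusted p = 0.00011) and Psmb10 (0.36 ± 0.07, adjusted p = 0.0011). For these 3 every DkkMo library lay above every scrMo library, as for 5 of the 10 genes in all. The share of all genes without overlap was not counted for this comparison. Nlrc5 (0.24 ± 0.08, adjusted p = 0.0355) and Tap2 (0.16 ± 0.05, adjusted p = 0.0418) were called with smaller differences, and both lost the call without log DkkMo library 2, without log DkkMo library 3 or without log scrMo library 2. Nlrc5 also lost it without log scrMo library 1 and Tap2 without log scrMo library 3, with differences of 0.14 to 0.26 for Nlrc5 and 0.13 to 0.17 for Tap2 among these fits. Both also lost the call with each library centred on its median (0.17 and 0.09) and with quantile normalisation (0.19 and 0.10). B2m (0.15 ± 0.07, adjusted p = 0.11) was called only without log DkkMo library 2 (0.22) or log scrMo library 1 (0.20). The heavy chains were within the spread of the libraries, H2-D1 at 0.05 ± 0.07 (adjusted p = 0.666) and H2-K1 at -0.09 ± 0.09 (adjusted p = 0.493). In log phase DkkMo cultures Tapbp and Psmb10 thus stood at 90.8% and 95% of the NT mean, and H2-K1 and H2-D1 at 52.3% and 60.3%.

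Under nutritional stress, DkkMo cultures had less of 7 of the 10 genes than scrMo cultures and more of Nlrc5, against 10.9% of all genes lower and 9.97% higher. The heavy chains fell most on the log2 scale, whereas Psmb9 and Psmb8 fell further as a share of the scrMo mean count. H2-K1 had 7245, 7996 and 8075 normalised counts in the stressed scrMo libraries and 5761, 5243 and 5777 in the stressed DkkMo libraries (-0.45 ± 0.09, adjusted p = 0.00102). H2-D1 had 18031, 18297 and 18790.2 against 13976, 13262 and 14182 (-0.41 ± 0.07, adjusted p = 0.000462). For both chains the groups did not overlap, as for 9 of the 10 genes, and the share of all genes without overlap was not counted here. Psmb8, at 519, 498 and 516 against 353, 345 and 375, was at 70% of the scrMo mean (-0.33 ± 0.06, adjusted p = 0.00068), and Psmb9, at 85.3, 106 and 109 against 58.8, 53.1 and 75.7, was at 62.4% (-0.24 ± 0.06, adjusted p = 0.00668).

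Nlrc5, the transactivator, had the opposite sign, at 1333, 1412 and 1329.5 normalised counts in stressed scrMo and 1614, 1669 and 1723 in stressed DkkMo cultures (0.25 ± 0.08, adjusted p = 0.0292). Tap1 (-0.25 ± 0.07, adjusted p = 0.0174), B2m (-0.20 ± 0.07, adjusted p = 0.0397) and Tap2 (-0.17 ± 0.05, adjusted p = 0.0325) were lower by less, and Tapbp (-0.13 ± 0.10, adjusted p = 0.407) and Psmb10 (-0.06 ± 0.07, adjusted p = 0.63) were not called. The count of 8 called genes fell to 4 (H2-K1, H2-D1, Psmb8 and Psmb9) without stress DkkMo library 2, stress scrMo library 2 or stress scrMo library 3. In those fits Nlrc5 differed by 0.24 to 0.28, B2m by -0.22 to -0.20, Tap1 by -0.21 to -0.20 and Tap2 by -0.17 to -0.12. Without each of the other 3 libraries of these groups in turn, B2m lost the call (-0.22 to -0.17), and without stress DkkMo library 3 or stress scrMo library 1 Nlrc5 did too (0.23 and 0.24). With each library centred on its median, 6 genes were called, as B2m (-0.17) and Tap2 (-0.14) lost their calls. Quantile normalisation left 7, without Tap2 (-0.14). On the log2 of the normalised count plus 1, 7 were called, without Nlrc5 (0.30).

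Between stressed scrMo and NT cultures the 10 genes differed less, with a median of 0.12. Of the 10 genes, 4 were higher and 1 lower in scrMo, against 22.1% of all genes higher and 24.7% lower. Psmb9 rose from 55.9, 50.8 and 57.8 to 85.3, 106 and 109 normalised counts (0.29 ± 0.06, adjusted p = 0.000458), Psmb8 by 0.23 ± 0.06 (adjusted p = 0.00452), H2-D1 by 0.21 ± 0.07 (adjusted p = 0.0233) and Tap1 by 0.19 ± 0.07 (adjusted p = 0.0353). B2m fell, from 26117, 28081 and 26316 to 22802, 22382 and 21686 (-0.26 ± 0.07, adjusted p = 0.00318). The calls of H2-D1 and Tap1, which left 3 called genes, were lost without stress NT library 1 or 2 and without stress scrMo library 2 or 3 (0.19 to 0.21 for H2-D1 and 0.14 to 0.20 for Tap1), and also with each library centred on its median, which changed the split from 4 higher and 1 lower to 2 higher and 1 lower. Quantile normalisation left 4 higher and none lower, with B2m at -0.02.

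Stressed DkkMo cultures, compared with the same NT libraries, had 1 gene higher and 4 lower, against 19% of all genes higher and 22.7% lower. The higher gene was Nlrc5 (0.39 ± 0.08, adjusted p = 0.000638), whose 3 NT libraries had 1233, 1191 and 1198 normalised counts. B2m, at 19894, 19733 and 18504, and H2-K1 each differed by -0.46 (SE 0.07 and 0.09, adjusted p = 2.47e-05 and 0.000408), and Tap2 by -0.23 ± 0.05 (adjusted p = 0.00225). The fall of H2-D1 (-0.20 ± 0.07, adjusted p = 0.0336) lost its call without any single library of these groups (-0.22 to -0.17) and was 0.0084 with quantile normalisation.

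The second question was how the pathway differed between stressed and growing cells. In NT cultures, 8 of the 10 genes were lower under stress and none higher, against 34.1% of all genes lower and 31.5% higher, with a median of -0.37 over the 10 and -0.01 over all genes. The immunoproteasome genes and Tapbp fell most. Psmb8 went from 1411, 1446 and 1402 normalised counts to 376, 439 and 388 (-1.36 ± 0.06, adjusted p = 6.44e-13), Tapbp from 5411, 5792 and 5464 to 2359.9, 2279 and 2239.9 (-1.18 ± 0.10, adjusted p = 5.49e-09), and Psmb10 from 435, 424 and 444 to 141, 157 and 141 (-0.86 ± 0.07, adjusted p = 3.22e-09). The chains changed less, H2-D1 to 74.2%, B2m to 82% and H2-K1 to 84.3% of the log phase mean. Tap2, at 952, 960.2 and 1006, and Nlrc5 were within the range of the log phase libraries or overlapped it (-0.02 ± 0.05, adjusted p = 0.767, and 0.05 ± 0.08, adjusted p = 0.576). The call of H2-K1 (-0.24 ± 0.09, adjusted p = 0.0232) was lost without log NT library 1, stress NT library 1 or stress NT library 3 (-0.24 to -0.20). With each library centred on its median, 5 genes were lower and 2 higher, as H2-K1 (-0.08), B2m (-0.13) and Tap1 (-0.15) lost their calls and Nlrc5 (0.21) and Tap2 (0.14) were called higher.

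The same step in scrMo cultures went mostly upward, with 6 genes higher and 2 lower, against 28% of all genes higher and 30.8% lower. Nlrc5 went from 534, 655 and 688 to 1333, 1412 and 1329.5 normalised counts (0.88 ± 0.08, adjusted p = 2.11e-08), Tap2 from 498, 474 and 444 to 853, 923 and 991 (0.70 ± 0.05, adjusted p = 2.86e-09), and H2-K1 and H2-D1 rose by 0.57 ± 0.09 and 0.56 ± 0.07 (adjusted p = 1.72e-05 and 1.93e-06). No stressed scrMo library of these 4 genes overlapped the log phase scrMo libraries, as for 8 of the 10 genes. The share of all genes without overlap was not counted for this step. Psmb10 (-0.35 ± 0.07, adjusted p = 0.000342) and Tapbp (-0.32 ± 0.10, adjusted p = 0.0105) fell, Tapbp losing its call without log scrMo library 1 (-0.21). B2m, not called (0.15), was called higher without that library (0.20), with each library centred on its median (0.22) and with quantile normalisation (0.20).

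DkkMo cultures were divided, with 4 genes higher under stress (Nlrc5, Tap2, H2-K1 and Tap1) and 4 lower (Tapbp, Psmb10, Psmb8 and B2m), against 30.4% of all genes higher and 35.2% lower. Nlrc5 rose by 0.89 ± 0.08 (adjusted p = 9.36e-09), from 641, 782 and 938 to 1614, 1669 and 1723 normalised counts, and Tap2 by 0.37 ± 0.05 (adjusted p = 6.79e-06). Tapbp fell by 1.16 on the log2 scale (SE 0.10, adjusted p = 8.36e-09), from 4876, 6018 and 4243 to 2135, 1987 and 2131, and Psmb8 fell by 0.71 (SE 0.06, adjusted p = 7.19e-09). The calls of H2-K1 (0.21 ± 0.09, adjusted p = 0.0429) and Tap1 (0.20 ± 0.07, adjusted p = 0.022) were lost without log DkkMo library 2 (0.09 and 0.16), stress DkkMo library 1 (0.19 for both) or stress DkkMo library 3 (0.19 and 0.16). That of B2m (-0.20 ± 0.07, adjusted p = 0.0134) was lost without log DkkMo library 3 (-0.13) or stress DkkMo library 3 (-0.17), and Psmb9 was called lower (-0.15) without the latter. Centring or quantile normalisation gave 5 higher and 3 lower, with H2-D1 called higher (0.27 and 0.21) and B2m not called. Tapbp and Psmb10 fell under stress in NT, scrMo and DkkMo cultures alike.

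**Figure D3:**
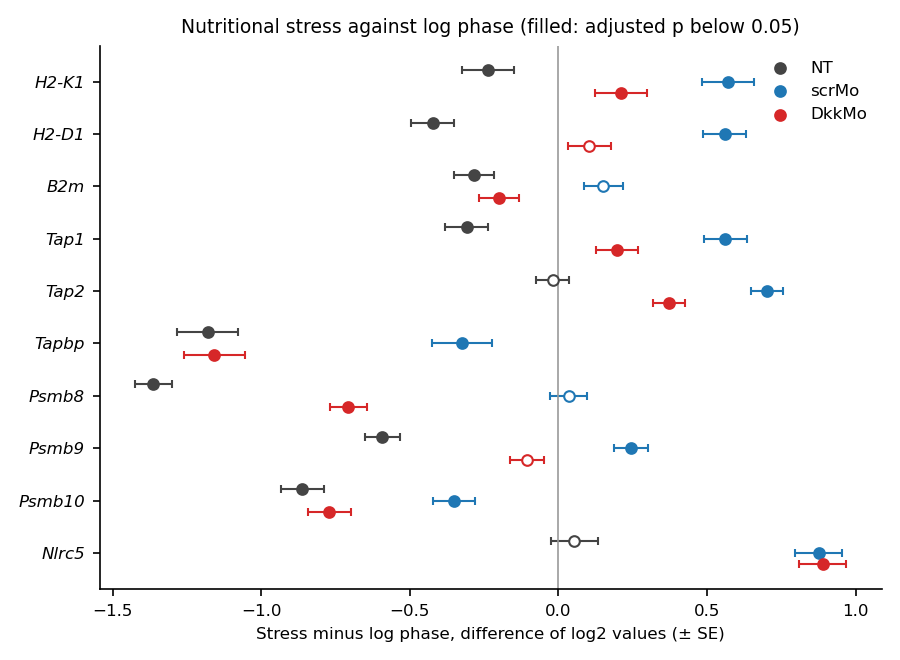
Stress minus log phase differences on the deposited log2 scale (x axis, ± SE of limma) of each gene (y axis) in NT, scrMo and DkkMo cultures, filled where the adjusted p is below 0.05. Tapbp and Psmb10 lie left of 0 in all 3 treatments, and Nlrc5 lies at 0.05, 0.88 and 0.89.

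The dependence on culture condition was tested directly as an interaction. For scrMo against NT, the difference under stress minus that in log phase was above 0 and called for all 10 genes, from 0.44 ± 0.09 for B2m (adjusted p = 0.00095) to 1.40 ± 0.09 for Psmb8 (adjusted p = 7.39e-10), against 22.8% of all genes higher and 23.2% lower. For DkkMo against scrMo the interaction was called below 0 for 9 genes, against 13.2% of all genes lower and 8.93% higher. Tapbp (-0.83 ± 0.14, adjusted p = 0.000466) and Psmb8 (-0.74 ± 0.09, adjusted p = 1.18e-05) had the largest values. H2-K1 (-0.36 ± 0.12, adjusted p = 0.0436) had the weakest call, which was lost in 9 of the 12 fits without 1 library (-0.38 to -0.26 in those) and with voom. Centring each library on its median left 6 of the 9 calls, as H2-K1 (-0.26), B2m (-0.25) and Tap1 (-0.27) lost theirs, and Tap1 also lost it with quantile normalisation (-0.27). Nlrc5 was the exception at 0.01 ± 0.11 (adjusted p = 0.949), being higher in DkkMo than in scrMo by 0.24 in log phase and 0.25 under stress.

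The immunoproteasome subunits were set against the constitutive subunits they replace, per length of the principal transcript. Psmb8 stood at 39.5% ± 1.89 (SD, n = 3) of Psmb5 in log NT, 12.2% ± 0.656 in log scrMo and 20.4% (19.4% to 22.1%) in log DkkMo cultures. Under stress it stood at 13.6% ± 0.709, 17.2% ± 0.0833 and 15.7% ± 0.547 in NT, scrMo and DkkMo cultures. The libraries of no 2 groups overlapped, and the closest were log scrMo, at 11.5% to 12.7%, and stress NT, at 12.9% to 14.4%. Psmb9 never exceeded 3.61% of Psmb6, and was 3.17% ± 0.382 in log NT and 1.05% ± 0.0853 in log scrMo cultures. Psmb10 stood at 17.5% ± 0.416 of Psmb7 in log NT, 10.6% ± 0.493 in log scrMo and 16.8% ± 3.03 in log DkkMo cultures, and at 7.68% to 9.69% on average under stress. In log phase, none of Psmb5, Psmb6 and Psmb7 was called in any comparison between treatments, with differences from -0.15 to 0.15. Under stress Psmb5 was lower in DkkMo than in scrMo cultures (-0.32 ± 0.08, adjusted p = 0.00541), beside -0.33 for Psmb8.

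**Figure D4:**
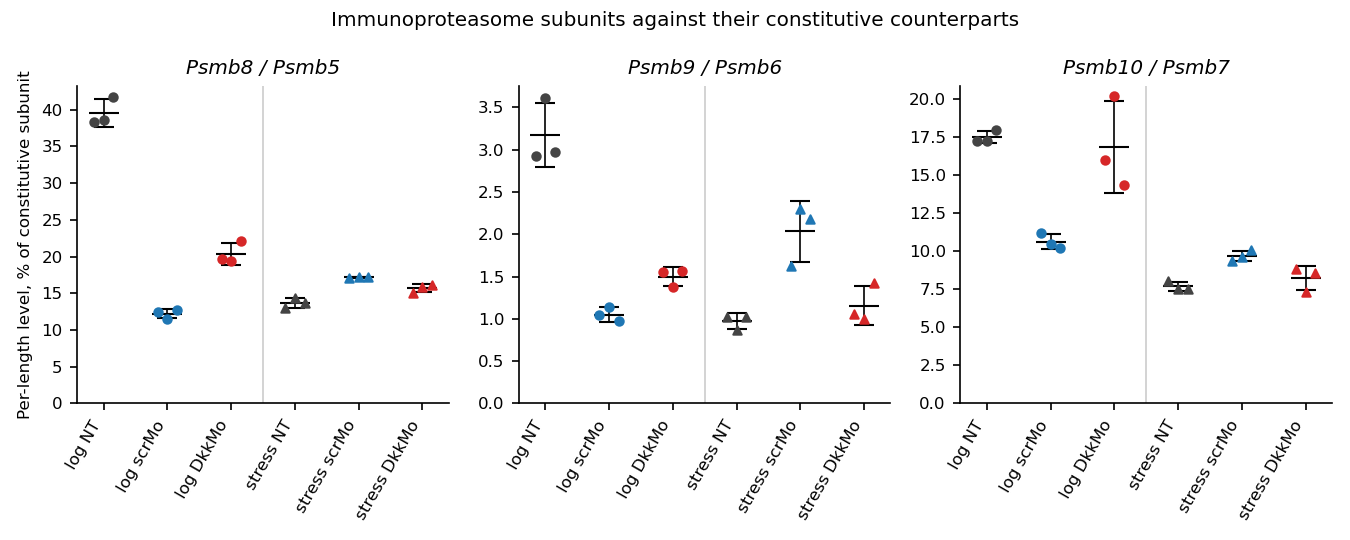
Level of each immunoproteasome subunit as a percentage of the constitutive subunit it replaces (y axis, linear from 0, normalised counts per length of the principal transcript) in each culture library, with mean and SD of each group of 3. Log NT cultures stand at 39.5% for Psmb8 over Psmb5, and every other group mean is at or below 20.4%.

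The chains were compared in the same way. H2-K1 and H2-D1 together amounted to 0.418 ± 0.0217 (SD, n = 3) of B2m per length in log NT, 0.389 ± 0.0132 in log scrMo and 0.350 ± 0.0203 in log DkkMo cultures, and to 0.396 ± 0.0120, 0.523 ± 0.0300 and 0.446 ± 0.0319 in stressed NT, scrMo and DkkMo cultures. H2-D1 exceeded H2-K1 in every library on this scale, by 1.57 ± 0.0239 times in stressed NT to 2.06 ± 0.116 times in log DkkMo cultures. B2m was thus the more abundant transcript throughout, although its lead over the heavy chains was smallest in stressed scrMo cultures.

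Other genes of the pathway were counted from lists chosen with the earlier results of these data known. Of 4 listed loading and editing genes with a value, Erap1, the aminopeptidase that trims peptides in the endoplasmic reticulum, and Tapbpl, a tapasin-related editor, were lower in log scrMo than in log NT cultures (-0.41 ± 0.06, adjusted p = 2.78e-05, and -0.37 ± 0.07, adjusted p = 0.000407) and higher in log DkkMo than in log scrMo cultures (0.29 and 0.41). Of 13 other class I and class I-like chains, 9 were lower and none higher in log scrMo than in log NT cultures, against 14.6% of all genes lower and 11.8% higher. These included H2-T23, the mouse Qa-1 heavy chain (-1.05 ± 0.06, adjusted p = 1.18e-09), H2-Q4 (-0.89 ± 0.07, adjusted p = 2.96e-08) and H2-T22 (-0.88 ± 0.05, adjusted p = 1.03e-09). Reads of these H2 genes can also be shared with their near-identical relatives.

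Between DkkMo and scrMo in log phase, 5 of the 13 chains were higher and none lower, against 14.3% of all genes higher and 9.2% lower. Under stress 3 were lower and none higher, against 10.9% of all genes lower and 9.97% higher, with H2-Q4 at -0.44 ± 0.07 (adjusted p = 0.000162). None of the 11 other core proteasome subunits was called between treatments in log phase, and neither were the 3 constitutive catalytic subunits. Among 8 activator and assembly genes, Psme2 and Psme1, which form the interferon-inducible PA28 activator, were lower in log scrMo than in log NT cultures (-0.44 ± 0.07 and -0.24 ± 0.08, adjusted p = 6.7e-05 and 0.0305) and higher in log DkkMo than in log scrMo cultures (0.44 and 0.33), while Psmg3 had the opposite signs (0.26 and -0.26).

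Regulators were examined next. Irf1, an interferon-responsive regulator, was widely spread in log scrMo cultures, at 4944, 1769 and 3076, and was not called against log NT (-0.04 ± 0.19, adjusted p = 0.911). It was called higher in log DkkMo than in log scrMo cultures (0.66 ± 0.19, adjusted p = 0.0181). The log DkkMo libraries, at 4822, 4782 and 5201, overlapped log scrMo library 1. Rfx5, a subunit of the complex that binds the X box, was higher in stressed DkkMo than in stressed scrMo cultures (0.21 ± 0.06, adjusted p = 0.0181), as was Nlrc5. Irf2, with group means of 680.5 to 806 normalised counts, was higher under stress in NT cultures (0.18 ± 0.04, adjusted p = 0.000781), and under stress it was lower in scrMo than in NT (-0.17 ± 0.04, adjusted p = 0.00236) and higher in DkkMo than in scrMo cultures (0.13 ± 0.04, adjusted p = 0.0307).

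Of 32 interferon-stimulated genes with a value, 30 were lower and none higher in log scrMo than in log NT cultures, 28 were higher and 1 lower in log DkkMo than in log scrMo cultures, and 2 were higher and 6 lower under stress for that pair. The shares of all genes were 14.6% lower and 11.8% higher in the first comparison, and 14.3% higher and 9.2% lower in the second. In the third they were 9.97% higher and 10.9% lower. The largest falls on the log2 scale in the first were those of Oas2 (-1.77), Ifit3b (-1.68) and Gbp3 (-1.55). The median differences of the 32 were -1.03, 0.57 and -0.11, beside -0.74, 0.16 and -0.22 for the class I pathway genes. In stressed against log phase cultures, 31 of the 32 were lower and none higher in NT (median -1.70), 14 lower and 6 higher in scrMo (median -0.12) and 27 lower and 1 higher in DkkMo (median -0.94). Of all genes, 34.1%, 30.8% and 35.2% were lower and 31.5%, 28% and 30.4% higher in NT, scrMo and DkkMo cultures, and the 10 class I pathway genes had medians of -0.37, 0.40 and 0.00. No gene of the list of 7 interferon ligands was among the listed genes. Of 11 class II pathway genes 4 had a value, and none was called between treatments in log phase. Under stress all 4 were higher in DkkMo than in NT cultures, against 19% of all genes higher and 22.7% lower. In stressed DkkMo against stressed scrMo cultures 2 were higher, against 9.97% of all genes higher and 10.9% lower. These were Ciita, the class II transactivator (0.33 ± 0.04, adjusted p = 8.86e-06), and H2-DMb1 (0.24 ± 0.06, adjusted p = 0.00446). In stressed scrMo against stressed NT cultures 2 were higher and 1 lower, against 22.1% of all genes higher and 24.7% lower.

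The 10 genes did not vary as one set. Over the 18 cultures, Pearson correlations of the 45 pairs, which share libraries and groups and are given as a description, had a median of 0.58 and ranged from -0.58 for Psmb10 with Nlrc5 to 0.97 for Tapbp with Psmb10. H2-K1 followed H2-D1 (0.95) and H2-D1 followed Tap1 (0.94), whereas 7 pairs were negative. Tap2 and Psmb10, for example, stood at -0.31. The genes most like the mean of the 10 over the 18 cultures, leaving out predicted genes, were Mindy1 (0.92), Grn (0.87), Slc9a9 (0.85), H2-Q4 (0.85) and H2-T-ps (0.84), followed by Dio2, H2-Q1, Gaa, Amigo2 and Plac8 (0.82 to 0.83). Mindy1, a deubiquitinase gene, had means of 8433 normalised counts in log NT, 6179 in log scrMo and 6038 in log DkkMo cultures.

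The order of the 6 groups also differed between genes. H2-D1 and Tap1 were highest in log NT, then in stressed scrMo, stressed NT and stressed DkkMo cultures, and lowest in log DkkMo and log scrMo cultures, and in both genes the libraries of the last 2 groups overlapped. H2-D1 also overlapped between stressed and log phase DkkMo cultures, and Tap1 between each neighbouring pair of the first 4 groups. Tapbp and Psmb10 instead had all log phase means above all stressed means, although log NT overlapped log DkkMo for both and log scrMo overlapped stressed scrMo for Tapbp. Nlrc5 had all stressed groups above all log phase groups by mean, in the order DkkMo, scrMo and NT without overlap among the first 3, while stress NT overlapped log NT and log DkkMo overlapped log scrMo.

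In the tumours, none of the 5 listed genes was called in any comparison. DkkMo against NT called 0% of all genes higher and 0% lower, DRB against NT called 0% higher and 0% lower, and Combination against DRB called 0.429% higher and 6.92% lower. No gene of the 5 reached an unadjusted p below 0.05 in the comparisons with NT, and 1 did between Combination and DRB. Limma voom on the recovered reads also called none. Fewer cells of a type and less RNA per cell cannot be told apart in these samples. Genes used by nearly all cells were also at 0 reads in some tumours (Rplp0 in 4 and Tbp in 7 of 16), so values are given per tumour without a mean, and the median difference of all genes was -0.54, -0.71 and 0.28 in the comparisons of DkkMo with NT, Combination with DRB and DRB with NT.

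B2m ranged over the whole scale within groups. The NT tumours had 20935, 8.02, 22397 and 496947 normalised counts, the DRB tumours 182501, 92079, 19692 and 9371, the DkkMo tumours 7386, 4101, 0 and 772, and the Combination tumours 511, 26185, 0.786 and 1.43. The groups overlapped in every comparison made. Combination differed from DRB by -6.16 ± 2.05 (adjusted p = 0.0675, unadjusted p = 0.00699, limma), beside the median of -0.71 for all genes. The adjusted p was 0.0463 without Combination tumour 2 (-7.98 ± 2.00), 0.015 with only the 2 groups in the fit, and 0.0594 to 0.188 without any other tumour of these groups.

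H2-K1 was detected in all 16 tumours, at 3928, 599, 2795 and 79655 in NT, 25246, 221, 526 and 329 in DRB, 1053, 2568, 3306 and 436 in DkkMo and 415, 766, 960.0 and 479.8 in Combination tumours. Tap1 reached 9378 in NT tumour 4 and 4010.0 in DRB tumour 1 and was at most 725 elsewhere. Tap2 had 1271 in NT tumour 4 and 3965 in DRB tumour 4 and 1645 in Combination tumour 2, and was at 0 in 2 DkkMo tumours. Nlrc5 spanned 17.5-fold or less within each group, at 324 to 5682 in NT, 334 to 3418 in DRB, 890.4 to 1890.3 in DkkMo and 764 to 2981 in Combination tumours.

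NT tumour 4 and DRB tumour 1, the highest for H2-K1, Tap1 and B2m, were also the highest for Ptprc, the pan-leukocyte gene CD45, at 352160 and 188377 normalised counts against 1533 to 130290 in the other 14. They were the highest for genes of other cell types too. The osteoblast gene Runx2 was at 51592 and 12312 (next 11067), and the endothelial gene Pecam1 at 189148 and 82968 (next 15718). The macrophage gene Adgre1 was instead at 1878 and 7647, beside 12410 in NT tumour 3. The summed level of the 3 of 6 T and natural killer cell markers that were listed (Nkg7, Klrb1c and Gzmb) reached 4422360 in NT, 1444150 in DRB, 58385 in DkkMo and 52265 in Combination tumours at most. The first 2 maxima were mostly Gzmb, at 4305210 in NT tumour 4 and 1401650 in DRB tumour 1. Klrb1c did not follow it throughout, at 6032 in DRB tumour 1, 50009 in DRB tumour 2, 2600 in NT tumour 1 and 3849 to 9068 in DkkMo tumours. The 3 of 7 listed macrophage and myeloid markers ranged from 4951 to 23963 over all groups. Cd3e, Cd4 and Cd8a were not listed. The part of leukocyte RNA in the tumour values of the class I genes was not tested. Without NT tumour 4, the comparisons with NT again called none of the 5.

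**Figure D5:**
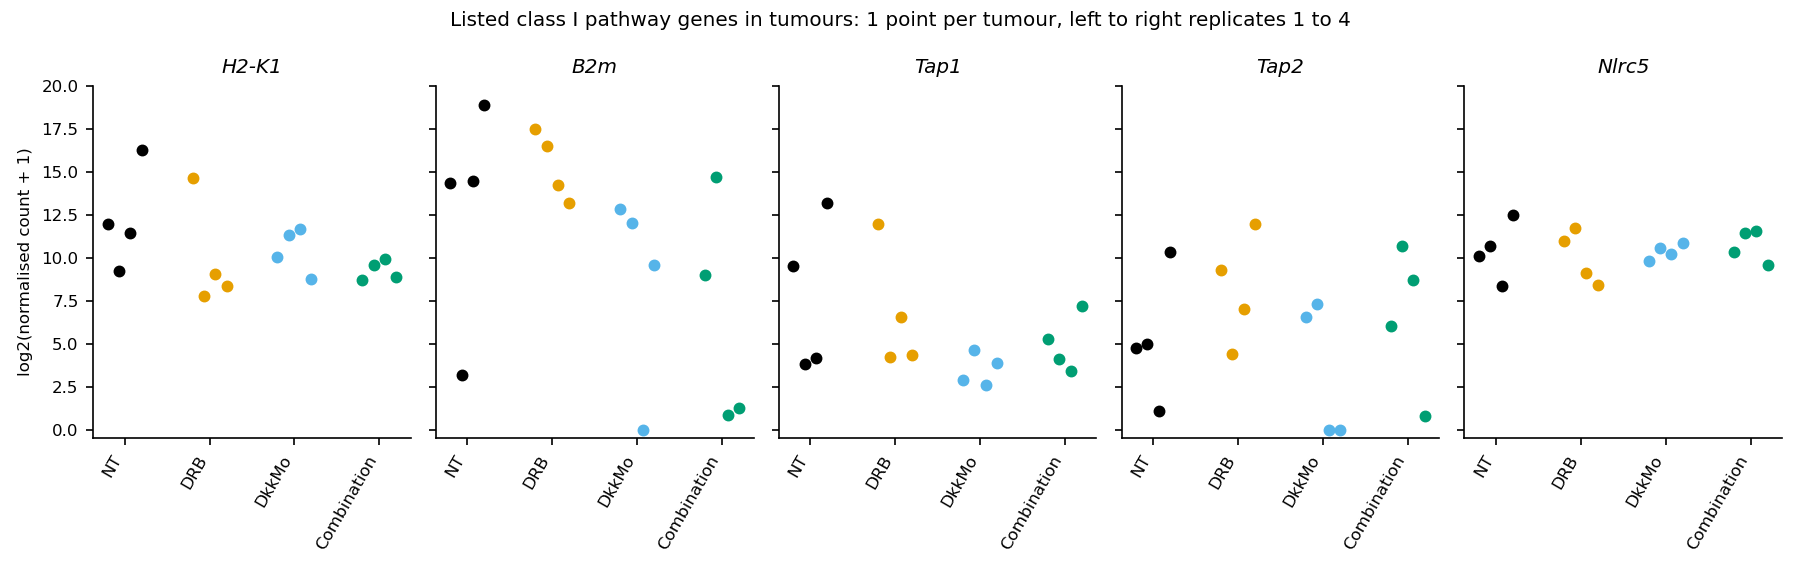
Log2 of the normalised count plus 1 (y axis) of the 5 listed class I pathway genes in each tumour (points, left to right replicates 1 to 4) by treatment. The groups overlap for each gene in every comparison made, with B2m running from 8.02 to 496947 normalised counts among the NT tumours.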

How the data were processed

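The 10 genes and all lists were chosen with earlier results of these data known. RNA of 18 cultures and 16 tumours was sequenced. Per the labels and the methods of the study, the authors aligned the reads to GRCm38 with HISAT2 2.1.0, handled alignments with SAMtools 1.9, counted reads per gene with featureCounts (Subread 2.0.0) and deposited variance-stabilised values of DESeq2 on a log2 scale, 1 table per set. Strandedness was not given in the sources used here.

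The transformation was reversed from the value of 0 reads in each table (7.20 and 6.23), which gave normalised counts and whole reads (tolerance 0.05) for 100% of culture values and at least 99.97% of tumour values in each library. In the cultures, 14 rows whose values spanned more than 6 within a group were set aside and 16562 genes were tested. None of the 14 rows set aside was a gene of the pathway.

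Group means were compared on the deposited scale with limma 3.58.1 (R 4.3.3) and a variance trend, fitting the libraries of a set together. P values were adjusted by Benjamini-Hochberg over all genes of a comparison and are two-sided. The test was tried on simulated data. Named were the 10 genes, in other lists at most 3 called genes per comparison, and Irf1, Rfx5, Irf2, Psmb5, Psmb6 and Psmb7, where the text calls on them. Another gene that this rule names is not reported here. Transcript lengths and positions were those of GENCODE M21 (GRCm38), with the longest principal transcript per gene. Samples came in groups from the labels. Figures were drawn with Matplotlib 3.10.9 in Python 3.11.15. Alternatives tried were other filters, scalings and fits, voom on the recovered reads, a 1.5-fold threshold, a block on the replicate number, and leaving out each library.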

Additional observations from a re-analysis of the deposited data

Results flagged for a closer look

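The difference between scrMo and NT cultures changed with culture condition for all 10 class I pathway genes, as a tested interaction in limma (stress difference minus log phase difference, log2 scale). The values were 0.44 for B2m, 0.51 for Psmb10, 0.72 for Tap2, 0.81 for H2-K1, 0.82 for Nlrc5, 0.84 for Psmb9, 0.86 for Tapbp, 0.87 for Tap1, 0.98 for H2-D1 and 1.40 for Psmb8. The difference between DkkMo and scrMo cultures changed with condition for 9 of them, and for 6 with each library centred on its median, where B2m, Tap1 and H2-K1 lost the call. Those values were -0.33 for Tap2, -0.35 for B2m, -0.35 for Psmb9, -0.36 for H2-K1, -0.36 for Tap1, -0.42 for Psmb10, -0.46 for H2-D1, -0.74 for Psmb8 and -0.83 for Tapbp. Both interactions use the scrMo libraries and are not independent.

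Among 20 sets of 4 tumours (5 genes in 4 groups), 2 had a tumour that stood apart by Dixon's test at the 95% level, and chance alone marks about 1 in 20. Both were DRB tumour 1, with a deposited log2 value of 14.63 for H2-K1 and 12.02 for Tap1. The same tumour had the highest Ptprc, Runx2 and Pecam1 levels of the DRB group, and the part of leukocyte or other RNA in it was not tested.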

How the results depend on the processing

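For scrMo against NT in log phase and its interaction with condition, 10 genes were called under every scaling, other fit and left-out library tried. A required change over 1.5-fold left 8, and so did testing only genes above the median mean. That filter leaves genes of lower mean untested, and how many of the 10 it left out is not given here. Requiring a change over 1.5-fold, which is strict on the compressed log2 scale, left 4 genes for stress against log phase in NT, 2 in scrMo and 4 in DkkMo cultures, 4 for DkkMo against NT in log phase, 1 for DkkMo against scrMo in log phase, 2 for its interaction, and 0 for each of the 3 comparisons under stress. With each library centred on its median, 3 genes were called for scrMo against NT under stress and 3 for DkkMo against scrMo in log phase. The latter had 3 calls with quantile normalisation and 2 with only the groups compared, which called 1 gene (B2m) between Combination and DRB tumours. Leaving out 1 library gave 3 to 5 genes for scrMo against NT under stress, 3 to 5 for DkkMo against scrMo in log phase, 4 to 7 for the same under stress, and 0 to 1 for Combination against DRB. Median centring raised all stress against log phase differences by 0.16 in NT and DkkMo and 0.07 in scrMo cultures, and moved the tumour comparisons by -0.33 to 1.04. It made Tap2 higher under stress in NT cultures (0.14), and quantile normalisation put H2-D1 at 0.0084 for stressed DkkMo against NT. The cause of these changes was not tested.

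Same-numbered cultures did not deviate together throughout (correlations of 0.62, -0.05 and 0.57 for the log DkkMo and scrMo libraries), so the numbers were not taken as pairing. Libraries 1 and 3 of these groups did match by number, and across numbers they stood at -0.68 and -0.61. Library 1 of each also matched stress DkkMo library 1 (0.35 and 0.37). Whether same-numbered libraries shared a batch was not tested. With the replicate block, 10 genes were called for scrMo against NT in log phase, 8 for DkkMo against NT in log phase, 4 and 6 for DkkMo against scrMo in log phase and under stress, 9 for its interaction, and 8 for stress against log phase in scrMo and in DkkMo cultures. The stressed NT libraries, 2 of which repeat a number, were left out of that fit. Psmb9 had the fewest reads of the 10 genes in the cultures, and B2m, Tap1 and Tap2 came down to 4 reads or fewer in some tumours, which limits their precision.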
